A study of Mus musculus with 10 samples.

Results

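The enzymes that build gangliosides, galactosylceramide, sulfatide and ceramides were followed through 10 genes: *Ugcg*, *B4galt6*, *St3gal5*, *B4galnt1*, *St8sia1*, *Ugt8a*, *Gal3st1*, *Cers1*, *Cers2* and *Cers6*. They were chosen by gene symbol as synthases of these lipids, with earlier results of these data known, and all 10 were found among the 25232 genes of the deposited table. The libraries were made from the spinal cord of female mice of 90 days of age on a C57BL/6 background. There were 5 wild type (WT) and 5 *SOD1 G93A* mice. The latter carry a high number of copies of a human *SOD1* transgene with a mutation of familial amyotrophic lateral sclerosis, and WT littermates were the controls. The methods name the lumbar region, which the sample labels do not state. Each gene has 1 value here, the authors' mean over the libraries of both genotypes, which DESeq2 names the base mean. The table holds no value of a single library, and its columns on the difference between genotypes were not used, so the levels below describe WT and *SOD1 G93A* tissue together and the spread between mice is not known.

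Ceramide synthases join a fatty acid to a sphingoid base, and the ceramide formed is the lipid from which complex sphingolipids are built. Addition of galactose by *Ugt8a* gives galactosylceramide, which *Gal3st1* sulfates to sulfatide, and both lipids are major components of the myelin made by oligodendrocytes and Schwann cells. Addition of glucose by *Ugcg* starts the other branch, in which galactose and sialic acids are added in turn to make gangliosides, which are abundant in the membranes of neurons.

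The sequences upstream of *Ugt8a* and *Gal3st1* are shown because these genes make consecutive steps to the myelin galactolipids while their windows differ in CpG content. For each gene, the 250 bases before the first listed start site were taken from RefSeq sequence of GRCm38.p6, with each CpG in capitals. The window of *Ugt8a* is chr3:125938653-125938902 on the minus strand and that of *Gal3st1* is chr11:3983386-3983635 on the plus strand. No annotated exon lies in either of them.
Ugt8a: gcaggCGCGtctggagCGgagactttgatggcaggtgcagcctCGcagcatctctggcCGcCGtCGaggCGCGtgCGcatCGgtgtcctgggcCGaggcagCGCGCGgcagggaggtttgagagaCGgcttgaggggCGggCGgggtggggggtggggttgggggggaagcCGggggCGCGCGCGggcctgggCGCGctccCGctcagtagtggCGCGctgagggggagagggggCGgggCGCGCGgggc
Gal3st1: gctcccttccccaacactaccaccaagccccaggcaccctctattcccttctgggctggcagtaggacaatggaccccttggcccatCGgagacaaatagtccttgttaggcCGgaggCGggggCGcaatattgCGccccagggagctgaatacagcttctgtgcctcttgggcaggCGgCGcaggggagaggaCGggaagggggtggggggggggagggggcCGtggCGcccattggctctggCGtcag

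The *Ugt8a* window held 32 CpG dinucleotides, a count at percentile 94.4 of the 15485 genes with a window and a level. The *Gal3st1* window held 11, at percentile 48.0, close to the median of 12 CpGs. Windows were found for 8 of the 10 genes, and the other 6 held between 11 (*Cers1*) and 43 (*Ugcg*). These counts are those of the first listed start site in RefSeq. By the GENCODE positions given below, the windows of *Ugcg* and *Cers2* lie within these genes, and that of *St3gal5* reaches into its gene. Other listed start sites of *Gal3st1* had windows with 12 and 2 CpGs, and another of *Cers2* had 5, against 24 at its first. A CpG count above the median of all genes was seen for 6 of the 8, against 49.1% of all genes. The GC content of the 8 windows lay between 59.2% (*Cers1*) and 80.4% (*Ugcg*), and the median over all genes was 57.6%. Letters were searched on both strands. TATAAA (the TATA box) was in 0 of the 8 windows and in 8.8% of all windows. CCAAT was in 5 of the 8 and in 35.3% of all, and GGGCGG (the GC box) was in 6 of the 8 and in 48.9% of all. These matches are letters in a window and were not tested as binding sites.

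To compare genes of different length, each base mean was divided by the length of the gene's merged exons in kilobases and scaled so that the 20360 genes with a base mean above 0 and a length sum to 1000000. This quantity is the level in the text below, and it is the same kind of measure as TPM. A percentile gives the share of these genes with a level at or below that of the gene. The median level was 12.5, and the middle of the genes lay between 1.28 (lower quartile) and 42.6 (upper quartile).

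All 10 synthase genes had a level above the median of all genes, and 9 of them lay above the upper quartile. *Cers6* was at 1.07 times the median, and it fell below the median with genes whose base mean reached 10 (percentile 36.6) or protein-coding genes (percentile 46.0) as the background. Their median level was 92.2, where the median over the 62 other sphingolipid genes with a level was 32.6. The order was *Ugt8a*, *Cers2*, *St3gal5*, *B4galnt1*, *B4galt6*, *Gal3st1*, *Ugcg*, *St8sia1*, *Cers1* and *Cers6*. *Ugt8a* was first, *Cers2* second and *Cers6* last with merged exons, the longest transcript or the longest coding sequence as the length. The order of the 7 genes between *Cers2* and *Cers6* changed with the length, and without values of single libraries it cannot be said which neighbours in it differ.

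**Figure D1:**
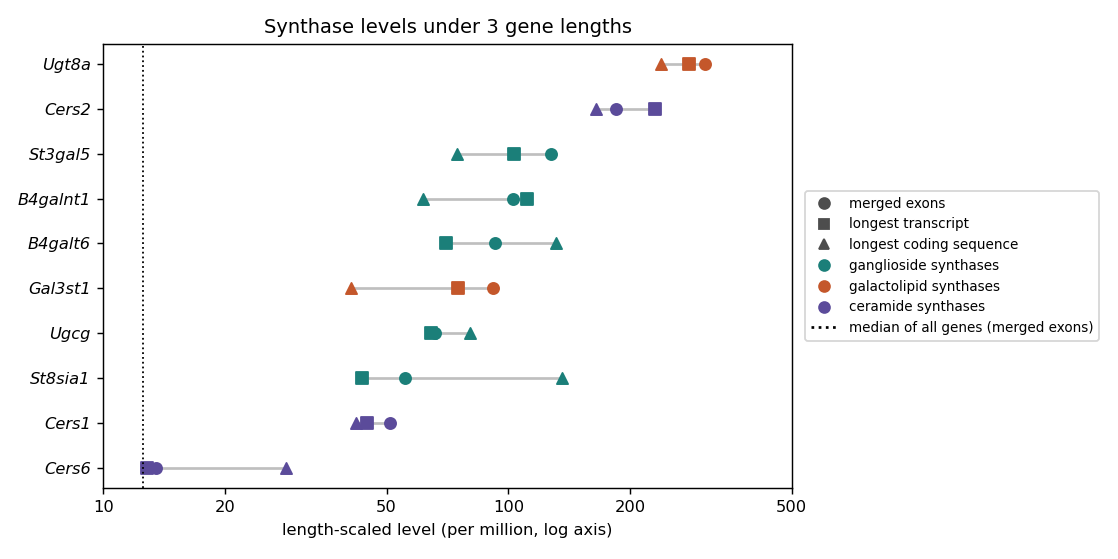
Length-scaled level (scaled to a sum of 1000000, log axis) of the 10 synthase genes in the authors' mean over all libraries. Circles, squares and triangles give the level with merged exons, the longest transcript and the longest coding sequence as gene length, the grey line spans the 3, colours mark the groups and the dotted line is the median of all genes (12.5). *Ugt8a* and *Cers2* lie above all others under each length, and *St8sia1* has the widest relative span.

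*Ugt8a*, the galactosyltransferase that makes galactosylceramide, lies on the minus strand of chromosome 3 of GRCm38 from 125865271 to 125938619. Its base mean was 7041 and its level 306, 24.4 times the median of all genes, which placed it at number 517 (percentile 97.5). *Gal3st1*, the sulfotransferase of the next step, lies on chromosome 11 from 3983636 to 3999326. Its base mean was 947 and its level 91.5 (percentile 88.3). The level of *Ugt8a* was therefore 3.35 times that of *Gal3st1*, and between 3.35 and 5.82 times under the 3 lengths. *Fa2h*, which adds the hydroxyl group found on many myelin galactolipids, had a level of 278, or 0.907 times that of *Ugt8a*.

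*Ugt8a* was also set beside structural genes of myelin. *Mbp*, the gene of myelin basic protein, had a level of 7447, which was 24.3 times that of *Ugt8a*, and 98.2 times with the longest coding sequence as the length. *Mog*, a protein of the outer myelin surface, had a level of 619, and *Ugt8a* was at 0.495 times that level. Transcripts of myelin genes of Schwann cells, which also make galactolipids, were found. Of 3 Schwann cell markers, 2 had a level above the median of all genes, among them *Prx* at 17.1, and *Pmp2* had a level of 3.01. The part of Schwann cells in the *Ugt8a* and *Gal3st1* levels was not tested.

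Ceramide can receive glucose in place of galactose, and this step is made by *Ugcg*, the glucosylceramide synthase. *Ugcg* lies on chromosome 4 from 59189257 to 59222833, with a base mean of 1735 and a level of 65.7 (percentile 83.3). The level of *Ugt8a* was 4.66 times that of *Ugcg*, and 2.96 times with the longest coding sequence as the length. Summed over the members of each branch, the 2 galactolipid genes had 0.896 times the level of the 5 ganglioside genes, or 0.578 times with the longest coding sequence.

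The next enzyme of the ganglioside branch, *B4galt6*, adds galactose to glucosylceramide and makes lactosylceramide. It lies on chromosome 18 from 20684599 to 20746404, with a base mean of 2733 and a level of 92.9 (percentile 88.5). *B4galt5*, which makes the same lipid, had a level of 59.5, so that *B4galt6* was at 1.56 times that level, and between 1.52 and 2.14 times under the 3 lengths.

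*St3gal5*, the sialyltransferase that makes GM3 from lactosylceramide, lies on chromosome 6 from 72097592 to 72154571. Its base mean was 1694, and with merged exons of 2618 bases its level of 128 (percentile 92.2) was the highest of the ganglioside genes. It lost this place with the longest transcript, where it was at 103 and *B4galnt1* at 111. Per coding length it was at 74.8 and *St8sia1* at 135. GM3 is then used by both *B4galnt1* and *St8sia1*. *B4galnt1*, which adds N-acetylgalactosamine and opens the path to GM2 and GM1, lies on chromosome 10 from 127165225 to 127172330 and had a base mean of 1792 and a level of 102 (percentile 89.7). Its exons shared 715 bases (20.7%) with *Slc26a10* on the opposite strand, and the strand setting of the counting is not given in the sources used here. Left out of the length, these bases moved the level of *B4galnt1* to 129.

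*St8sia1*, which adds a second sialic acid to GM3 and makes GD3, lies on chromosome 6 from 142821545 to 142964452. It had the second highest base mean of the 5 ganglioside genes followed here, 2628, but the lowest level, 55.5 (percentile 80.2), over merged exons of 9341 bases. Whether *St8sia1* was lower or higher than *B4galnt1* depended on the length. The ratio was 0.542 with merged exons, 0.391 with the longest transcript and 2.20 with the longest coding sequence of 1065 bases. The ratio of *St8sia1* to *St3gal5* likewise crossed 1, from 0.435 with merged exons to 1.81 with the longest coding sequence. Of the summed level of the 5 genes, *St3gal5* held 28.7%, *B4galnt1* 23.1%, *B4galt6* 20.9%, *Ugcg* 14.8% and *St8sia1* 12.5%. The levels of these 5 genes, which are not the whole branch, ran from 55.5 to 128 with merged exons. Per coding length they ran from 61.4 (*B4galnt1*) to 135 (*St8sia1*), so that the same gene could be lowest or highest.

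**Figure D2:**
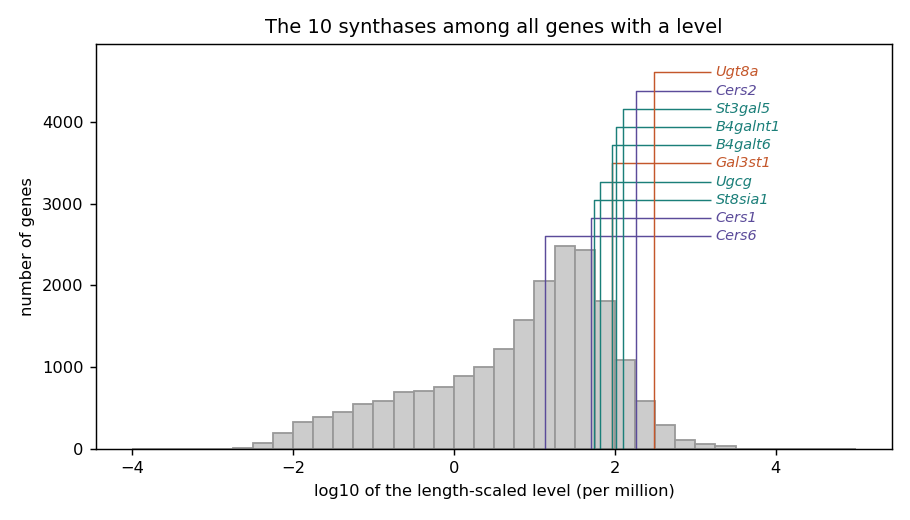
Number of genes (vertical axis) by log10 of the length-scaled level (horizontal axis) for the 20360 genes with a level, with a line at each of the 10 synthase genes, coloured by group as ganglioside (green), galactolipid (orange) or ceramide (purple) synthases. Of the 10 genes, 9 lie above the upper quartile of 42.6 and *Cers6* lies near the median.

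The ceramide synthases differ in the fatty acid they prefer. *Cers2* makes ceramides with very long chains, *Cers1* those with stearic acid and *Cers6* those with palmitic acid. *Cers2*, on chromosome 3 from 95314791 to 95323599, had a base mean of 3427 and a level of 184 (percentile 94.9). *Cers1*, on chromosome 8 from 70315775 to 70331592, had a base mean of 819 and a level of 51.0 (percentile 78.5). *Cers6*, on chromosome 2 from 68861441 to 69114282, had a base mean of 606 and a level of 13.5 (percentile 51.2).

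The level of *Cers2* was 3.61 times that of *Cers1* and 13.7 times that of *Cers6*. All 6 ceramide synthase genes were listed, and *Cers2* held 58.3% of their summed level. *Cers1* followed with 16.2%, *Cers5* with 15.2%, *Cers4* with 5.84%, *Cers6* with 4.27% and *Cers3*, whose level was 0.732, with 0.232%. The share of *Cers2* was 65.3% with the longest transcript and 50.5% with the longest coding sequence. The merged exons of *Cers6* cover 8875 bases, of which the longest coding sequence takes 1176. Per coding length, *Cers2* was 5.84 times *Cers6* and 3.10 times *Cers4*.

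The value of *Cers1* carries a limit of its own. *Gdf1*, a growth factor gene, lies on the same strand, and all of its exon bases lie in exons of *Cers1*, where they make up 42.5% of the *Cers1* exons. *Gdf1* was listed at 0. How the authors' counting treated reads in the shared exons is not given in the sources used here. With the 1349 shared bases left out of its length, *Cers1* had a level of 88.7 in place of 51.0, and the share of *Cers2* was 52.1%. *Cers1* then stood above *Ugcg* (65.7) and *St8sia1* (55.5), which are above it in the order given earlier. Apart from *B4galnt1*, no single overlap of the other members with another gene exceeded 3.9% of their exon bases. *Cers2* shared 3.9% with *6330562C20Rik* and 2.0% with *Setdb1*, both on the opposite strand. Its level was 196 in place of 184 with all shared bases left out.

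**Figure D3:**
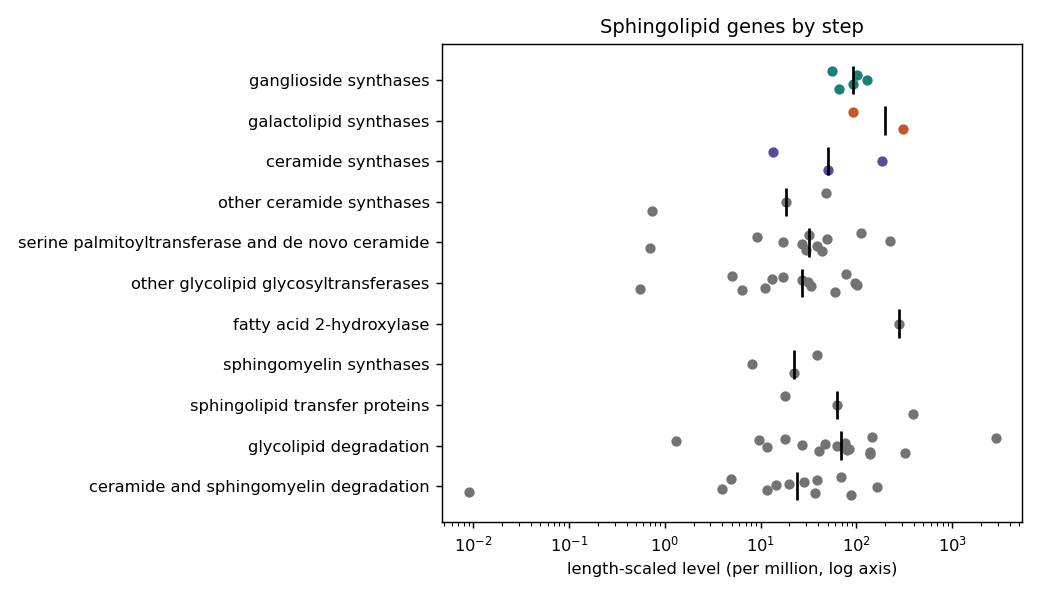
Length-scaled level (scaled to a sum of 1000000, log axis) of each sphingolipid gene, 1 point per gene, arranged by the step it belongs to, with a black line at the median of each list. The ganglioside genes among the members lie between 55.5 and 128, while most other lists span more than 10-fold.

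The steps before and after these enzymes were read from lists of sphingolipid genes. Among the 11 genes of serine palmitoyltransferase and de novo ceramide synthesis, 9 had a level above the median of all genes. *Degs1*, the desaturase that makes ceramide from dihydroceramide, was the highest at 225, and *Sptlc3* the lowest at 0.696. The 13 other glycolipid glycosyltransferases had a median level of 27.1, from 0.552 (*B3gnt5*) to 102 (*St3gal2*), and 9 were above the median of all genes. Of the 13, 4 had a level in the range of the ganglioside genes followed here: *St3gal2* at 102, *St3gal3* at 97.2, *St6galnac6* at 76.98 and *B4galt5* at 59.5. The other genes of the list were lower, among them *B3galt4* at 11.3 (percentile 48.1), below the median of all genes. The 3 genes of the sphingomyelin synthase family had levels from 8.08 (*Sgms2*, which makes sphingomyelin from ceramide) to 38.6 (*Samd8*, which makes ceramide phosphoethanolamine), all below that of *Ugcg*. Of the 4 lipid transfer proteins, 3 were listed under the symbol searched. *Cert1* was not found under that symbol, so its level is not known here. *Gltp*, which carries glycolipids, was the highest of the 3 at 392. The lowest of them was *Plekha8* at 17.8.

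Glycolipids are taken apart largely in the lysosome, and 4 synthases were set beside an enzyme of the reverse step. The level of *Ugt8a* was 26.4 times that of *Galc*, the galactosylceramidase, and 9.50 times with the longest transcript as the length. *Gal3st1* and *Arsa*, which removes the sulfate, had levels of 91.5 and 62.5, and their ratio lay between 0.972 and 1.51 under the 3 lengths. *Ugcg* had 0.786 times the level of *Gba2*, a glucosylceramidase outside the lysosome, and 2.13 times per coding length. *B4galnt1* had 0.745 times the level of *Hexa*, a hexosaminidase subunit, with merged exons and 1.28 times per coding length. Over all 16 genes of glycolipid degradation the median level was 69.0, from 1.30 (*Neu2*) to 2860 (*Psap*, the precursor of the saposins), and 13 were above the median of all genes. The 12 genes of ceramide and sphingomyelin degradation had a median of 23.9, from 0.00903 (*Acer1*) to 164 (*Smpd1*), and 8 were above the median of all genes.

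**Figure D4:**
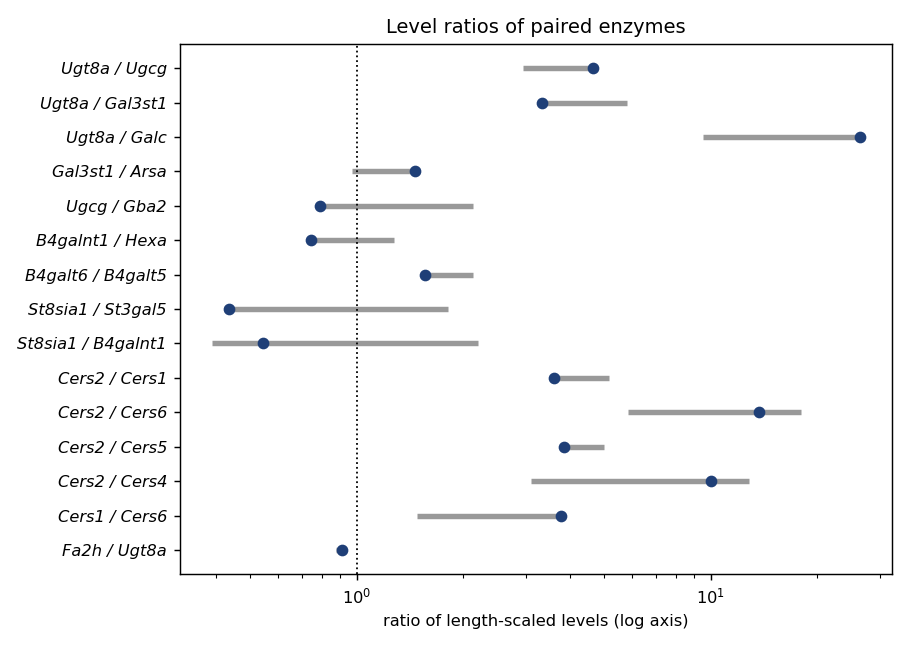
Ratio of the length-scaled levels of the first to the second enzyme (log axis), with the point at merged exons, the grey bar from the lowest to the highest value under 3 gene lengths and the dotted line at 1. The ratios of *Ugt8a* to *Ugcg*, *Gal3st1* and *Galc* and those of *Cers2* to *Cers1*, *Cers4*, *Cers5* and *Cers6* lie above 1 under each length. The bars of *St8sia1*, of *Ugcg* to *Gba2*, of *Gal3st1* to *Arsa* and of *B4galnt1* to *Hexa* cross 1.

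The tissue label was checked against marker genes. All 8 oligodendrocyte markers, 4 astrocyte, 4 microglia and 4 neuron markers had levels above the median of all genes. Their median levels were 1232 for oligodendrocytes, 669 for astrocytes, 50.6 for microglia and 920 for neurons. The 3 endothelial markers were also above the median of all genes (median level 32.9), as was 1 of the 3 markers of oligodendrocyte precursors (median level 12.5). Of the motor neuron markers, *Chat*, the enzyme of acetylcholine synthesis, had a level of 30.8 and *Slc5a7* of 81.0, while *Isl1* and *Mnx1* had 2.27 and 3.27. All 6 *Hox* genes listed for spinal cord position were above the median, from *Hoxc9* at 13.1 to *Hoxc8* at 94.6. *Hoxc10* was at 50.5, *Hoxd10* at 16.5 and *Hoxa10* at 14.2. *Hoxc9* was lower than *Cers6*, which fell below the median with the other backgrounds. Among the 8 genes of other tissues, *Acta1*, of skeletal muscle, had the highest level (32.3). In whole tissue, more cells of a type and more RNA per cell cannot be told apart, and the cell type that carries each synthase transcript was not measured.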

How the data were processed

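RNA-seq was made from 5 WT and 5 *SOD1 G93A* spinal cords, with the TruSeq Stranded mRNA kit. The authors filtered reads with Fastp, aligned them to mm10 with HISAT2 (2.1.0 in the submitters' processing notes), counted uniquely mapped reads with featureCounts (2.0.2) and compared the groups with DESeq2. The gene annotation and the strand setting are not given in the sources used here. The only column used, the base mean, is a signal deposited by the authors: the mean over the 10 libraries of counts divided by size factors, as DESeq2 defines it. The 5 other columns hold the authors' log2 fold changes, standard errors, Wald statistics, p-values and adjusted p-values, and were not used. No test between genotypes was therefore made. The depth of each library is unknown, and no interval is given. The base means sum to 22158933, and 4259 genes were listed at 0.

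Symbols were matched to GENCODE M21 (GRCm38, the build that mm10 denotes). A single gene was found for 24312 (96.4%), with 98.7% of the summed base mean. Lengths were those of merged exons, with the longest transcript, the longest coding sequence and no length as alternatives, and genes whose base mean reached 10 or protein-coding genes as other backgrounds. The members and lists were chosen with earlier results of these data known. All members are named, with the highest and lowest gene of each list, markers and genes set beside a member in a ratio or share. Some of these are not reported here. Genes with a pattern like that of a member were not sought, since 1 value per gene holds no pattern. *St3gal3*, *St6galnac6* and *B3galt4* were chosen after their values were seen. The level computation was run on counts simulated from the same levels and the same merged exon lengths. That run could not test the choice of length or the treatment of shared exons. Python 3.11.15, numpy 2.4.6, pandas 2.3.3 and matplotlib 3.10.9 were used.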

Additional observations from a re-analysis of the deposited data

How the results depend on the processing

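No paired analysis was possible because the file holds no value of a single library, and for the same reason no library could be left out in turn. The number of members above the median was 9 with genes whose base mean reached 10 (*Cers6* at percentile 36.6) or protein-coding genes (*Cers6* at 46.0) as the background, and 10 with each other length or none. The ratio of *Ugt8a* to *Ugcg* was 2.96 and the ratio of the galactolipid to the ganglioside genes 0.578 with the longest coding sequence, and both moved by over 1.5 times from 4.66 and 0.896. Across the planned lengths and backgrounds and the removal of shared exon bases, which was chosen after the data were seen, the other 20 values of the 4 summaries stayed within 1.5 times. Some of them could not have moved. *Ugt8a* and *Ugcg* share no exon bases with another gene, so their ratio could not change with that removal. The count of members, at 9 or 10, would have had to drop by several genes. Of the levels and percentiles of single members, 87 stayed within 1.5 times or 5 percentile points and 23 moved further, among them *Cers6*, whose percentile lay between 36.6 and 65.2. Many of the 87 were bound to stay, so this count does not measure stability. Another background rescales all levels by the same factor, and removal of shared bases leaves members without such bases nearly unchanged. These limits of 1.5 times and 5 points were set by choice and say nothing of the spread between mice, which is not known.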
